A study of Mus musculus with 12 samples.

Results

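The 10 genes described here carry long-chain fatty acids into the liver cell, bind them in the cytosol and turn them into acyl-CoA. They were *Cd36*, *Slc27a2*, *Slc27a4*, *Slc27a5*, *Fabp1*, *Dbi*, *Acsl1*, *Acsl3*, *Acsl4* and *Acsl5*, chosen by name, and every non-control probe whose RefSeq record belongs to one of them was taken. This gave 13 probes for 10 genes, out of 39429 probes and 20283 named genes on the array. *Acsl1*, *Dbi* and *Slc27a5* had 2 probes each, and on all 12 arrays each of the 13 was above background in both channels.

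The question of the study was which hepatic genes respond to molecular hydrogen in *db*/*db* mice, which lack a functional leptin receptor and become obese and diabetic. All mice were male and 8 weeks old. H2 was given as MgH2, which releases H2 on contact with water, gavaged daily for 1, 3 or 7 days against Mg(OH)2, at a dose of 0.9 mg/kg by the labels (the methods text names other doses), or as H2-water of 0.8 mM as drinking water for 14 days, against degassed water. Every array held a treated pool (Cy5) and a control pool (Cy3) of liver RNA, with 3 mice a pool and 3 arrays for each of the 4 groups. No group held lean mice, and all controls carried the leptin receptor mutation too. The treated pool carried Cy5 throughout and no dye swap was made, so a dye bias of a probe stays in its ratio. Of the spots, 51.8% to 56.5% were above background in both channels, and none was saturated. The defining hepatocyte markers *Alb*, *Ttr* and *Apoa1* were above background in both channels throughout.

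Long-chain fatty acids reach the liver mostly bound to albumin. CD36, a scavenger receptor, and the fatty acid transport proteins of the SLC27 family take part in their uptake, and several SLC27 proteins are themselves acyl-CoA synthetases. Inside the hepatocyte, liver fatty acid binding protein (FABP1) binds free fatty acids, the long-chain acyl-CoA synthetases (ACSL) couple them to coenzyme A, and the acyl-CoA binding protein, encoded by *Dbi*, holds the product for esterification or oxidation. Many of these genes are known targets of the nuclear receptor PPARα.

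Values below are log2 ratios of the processed signals, treated over control, so that 0 means equal signal. A probe is said to have risen or fallen where the adjusted P of limma, over all probes above background in the comparison, was under 0.05. Of all probes so tested, this held for 9.39% at 1 day, 23.4% at 3 days, 29.5% at 7 days and 8.84% at 14 days. Because whole tissue was measured, fewer cells of a type and less RNA per cell cannot be told apart.

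Of the 10 genes, represented by their brightest probe, 4 fell after both 3 and 7 days of MgH2: *Fabp1*, *Dbi*, *Acsl3* and *Acsl5*. Lower calls made up 11.1% of all probes tested at 3 days and 14.3% at 7 days. *Slc27a2* fell at 7 days only by the test, by less, and *Cd36*, *Slc27a4* and *Acsl4* passed the test in no group. After 14 days of H2-water, no gene passed by its brightest probe, and the only probe of the 13 that did was the second *Dbi* probe, which rose. Counted by probe, 2 rose and 0 fell at 1 day, 1 rose and 6 fell at 3 days, and 1 rose and 6 fell at 7 days. The median log2 ratio of the 13 probes was 0.01, −0.08, −0.11 and 0.06 at 1, 3, 7 and 14 days, beside medians between −0.0049 and 0.0059 over all probes tested.

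**Figure D1:**
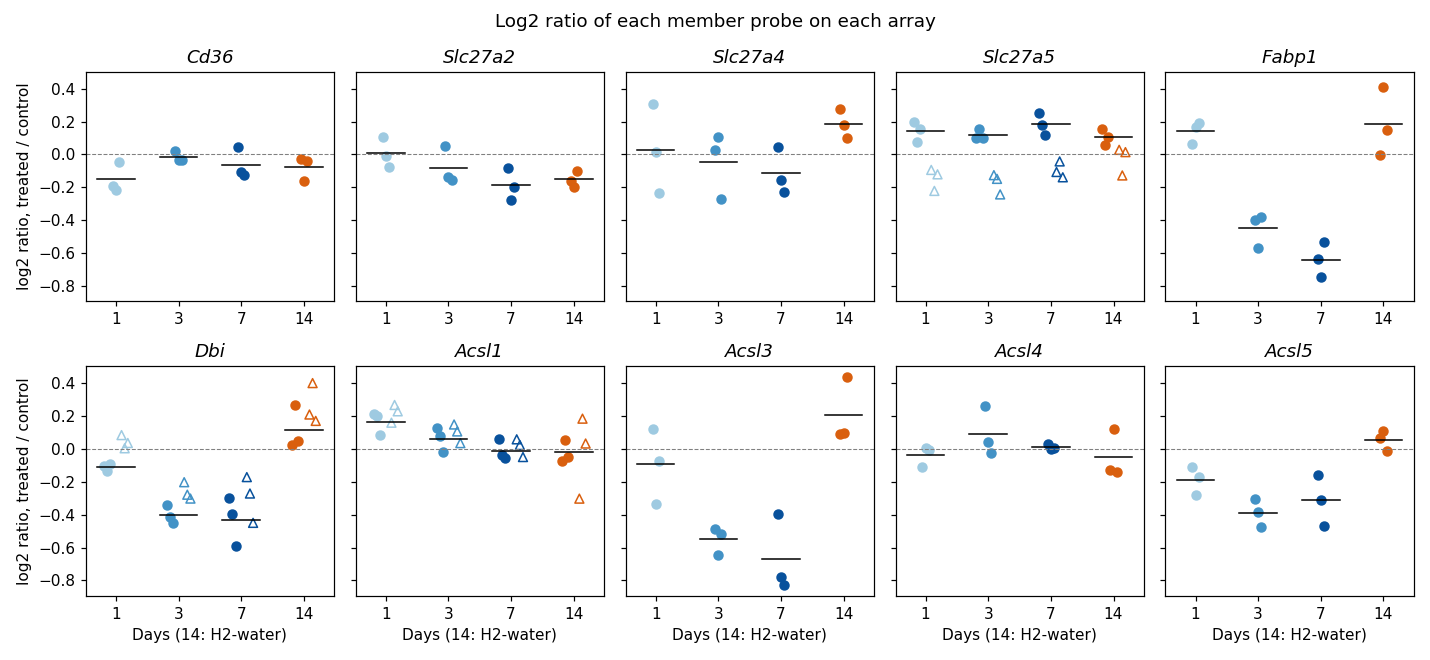
Log2 ratio of treated over control signal (vertical axis) by days of treatment (horizontal axis; 1, 3 and 7 days are MgH2 and 14 days is H2-water) for the 10 genes. Each filled circle is the brightest probe on 1 array, each open triangle the second probe of *Slc27a5*, *Dbi* or *Acsl1*, and each black line the mean of the filled circles. *Fabp1*, *Dbi*, *Acsl3* and *Acsl5* lie below 0 on all 3 arrays at 3 and at 7 days, and *Fabp1* reaches −0.75 at 7 days.

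The upstream sequences of *Acsl3* and *Fabp1*, which had the largest falls at 7 days, are shown from RefSeq on GRCm38.p6 as the 250 bases before the transcription start, 5′ to 3′ on the gene's strand. Capitals mark the only match to a direct repeat, searched on both strands as the hexamer AGGNCA, any 1 base and AGGNCA again (N is any base), a form of the sequence that PPARα binds with its partner RXR.
*Fabp1*, chr6:71199629-71199878, plus strand: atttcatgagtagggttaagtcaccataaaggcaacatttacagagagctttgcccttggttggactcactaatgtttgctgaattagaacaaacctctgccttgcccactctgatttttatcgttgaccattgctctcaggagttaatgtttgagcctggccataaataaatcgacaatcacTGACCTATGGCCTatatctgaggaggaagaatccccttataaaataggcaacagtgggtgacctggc
*Acsl3*, chr1:78657575-78657824, plus strand: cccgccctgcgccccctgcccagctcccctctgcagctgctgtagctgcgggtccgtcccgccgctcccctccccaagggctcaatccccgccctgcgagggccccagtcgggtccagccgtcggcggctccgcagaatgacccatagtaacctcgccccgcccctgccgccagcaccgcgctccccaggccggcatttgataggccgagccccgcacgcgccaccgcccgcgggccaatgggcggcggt
In *Fabp1* the match TGACCTATGGCCT lies at −67 to −55 from the start and reads AGGCCATAGGTCA on the other strand. RefSeq windows matched 9 of the 10 genes, with 11 windows in all, and 1 of these 11 held the repeat, against 0.338% of the 32851 windows in the table. The hexamer AGGTCA, on either strand, was in 3 of the 11, those of *Cd36*, *Fabp1* and *Slc27a2*, against 14% of all windows. This hexamer can be a part of the repeat. These are matches of letters, not sites at which binding was measured.

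Among the uptake genes, changes were small. *Cd36* read −0.19, −0.22 and −0.05 at 1 day, 0.02, −0.04 and −0.03 at 3 days, 0.05, −0.10 and −0.13 at 7 days, and −0.03, −0.16 and −0.04 at 14 days. All 3 arrays were below 0 at 1 day and at 14 days, but no mean passed the test, and the nearest was 1 day (−0.15, SE 0.05, 95% interval −0.26 to −0.05, limma adjusted P = 0.076). With the replicate number as a block, the 1-day mean passed (limma adjusted P = 0.049). Such a block leaves a group mean as it is and takes spread between pools out of its error. Its passes for group means are therefore no added support. Of 10 alternative settings that kept the arrays compared, this one among them, 3 called the 1-day mean (lowest limma adjusted P = 0.038). With 1 array left out, 0 of 3 did. At 7 days the interval of *Cd36* ran from −0.17 to 0.04, and 1 of the 10 alternative settings called its mean lower (limma adjusted P = 0.049).

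*Slc27a2* encodes a very long-chain acyl-CoA synthetase that also works as a transporter in hepatocytes. It read 0.11, −0.01 and −0.08 at 1 day, 0.05, −0.14 and −0.16 at 3 days, −0.08, −0.28 and −0.20 at 7 days, and −0.16, −0.20 and −0.10 at 14 days. It was below 0 on all arrays of 7 and 14 days, and the mean passed the test at 7 days (−0.19, SE 0.05, limma adjusted P = 0.026), which is 12.2% below control. This call was lost without replicate 2 (−0.14, adjusted P = 0.15), without replicate 3 (−0.18, adjusted P = 0.11) and after normexp and loess (−0.12, adjusted P = 0.079). The 14-day mean, −0.15, did not pass (limma adjusted P = 0.12). It passed with the replicate block (limma adjusted P = 0.048), which is no added support, as said for *Cd36*. The 14-day ratios also hardly paired by number with those of the other times (r from −0.0411 to 0.287).

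*Slc27a4*, another transport protein with acyl-CoA synthetase activity, scattered around 0 on the MgH2 arrays, from −0.27 to 0.30, and was above 0 on all 3 arrays at 14 days (0.28, 0.18 and 0.10). None of its means passed. Its 95% intervals were wide, from −0.33 to 0.11 at 7 days and from −0.04 to 0.41 at 14 days, with processed signals between 72.0 and 182 units.

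*Slc27a5* encodes a liver protein that also conjugates bile acids to coenzyme A, and its 2 probes pointed in opposite directions. The brighter probe was above 0 on all 12 arrays, with readings of 0.20, 0.07 and 0.16 at 1 day, 0.10, 0.16 and 0.10 at 3 days, 0.25, 0.18 and 0.12 at 7 days and 0.15, 0.06 and 0.10 at 14 days. The dimmer probe read −0.09, −0.22 and −0.12 at 1 day, −0.13, −0.15 and −0.24 at 3 days, −0.11, −0.04 and −0.14 at 7 days, and 0.03, −0.13 and 0.01 at 14 days. The probes had opposite signs on 10 of 12 arrays, and the brighter one lay above the other on all 12, by 0.09 to 0.36. The brighter probe rose at 1 day (0.14, adjusted P = 0.046), 3 days (0.12, adjusted P = 0.046) and 7 days (0.18, adjusted P = 0.0060), and the dimmer one fell at 3 days (−0.17, adjusted P = 0.019), all by limma. No direction is given for *Slc27a5* itself, since the mean of its probes was −0.0019, −0.03 and 0.04 at 1, 3 and 7 days. Between time points, where a constant bias of a probe cancels, both probes differed little: 7 days minus 1 day was 0.04 (95% interval −0.08 to 0.16) for the brighter and 0.05 (−0.09 to 0.19) for the dimmer. Without any 1 of the 3 arrays, the calls of the brighter probe were lost at 1 day (adjusted P from 0.085 to 0.20) and at 3 days (0.11 to 0.20). The call of the dimmer probe at 3 days was lost without replicate 2 (−0.18, adjusted P = 0.066) and without replicate 3 (−0.14, adjusted P = 0.11).

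**Figure D2:**
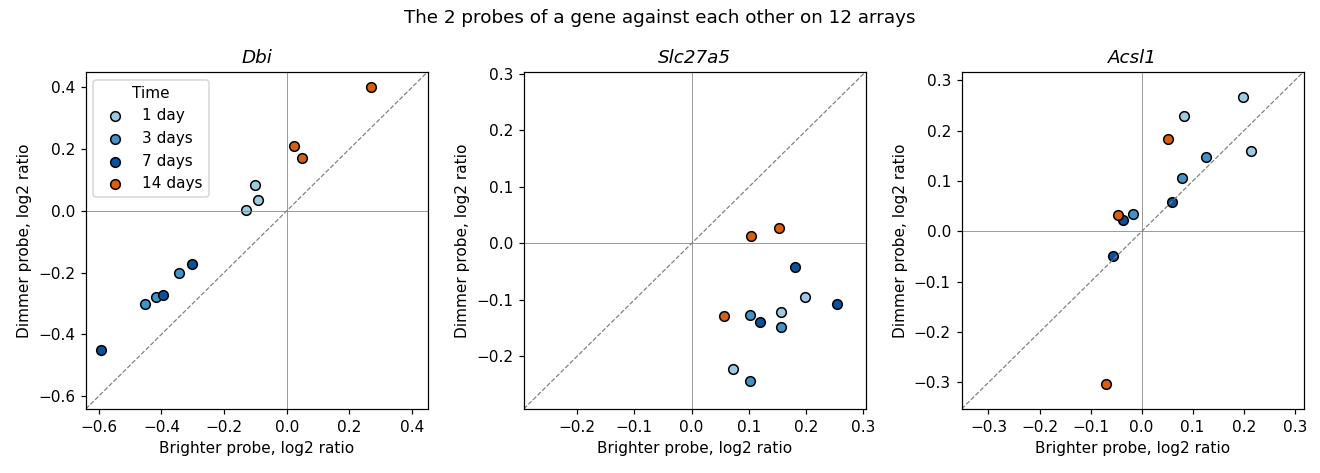
Log2 ratio of the dimmer probe (vertical axis) against that of the brighter probe (horizontal axis) for the 3 genes with 2 probes, 1 point for each of the 12 arrays, coloured by days of treatment, with the line of equality dashed. The *Dbi* points run parallel to the line at a near-constant offset, whereas every *Slc27a5* point lies below it by 0.09 to 0.36.

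The binding proteins among the 10 genes were those of *Fabp1* and *Dbi*. The log2 ratio of *Fabp1* was 0.06, 0.17 and 0.19 at 1 day, −0.40, −0.57 and −0.38 at 3 days, −0.64, −0.75 and −0.53 at 7 days, and 0.00, 0.41 and 0.15 at 14 days. The 6 arrays of 3 and 7 days were all below every array of the other 2 times. The mean fell by 0.45 at 3 days (SE 0.07, limma adjusted P = 0.0028) and by 0.64 at 7 days (SE 0.07, adjusted P = 0.00031), that is to 26.7% and 35.8% below the control signal. The means of 1 day (0.14, adjusted P = 0.26) and 14 days (0.19, adjusted P = 0.15) did not pass. With normexp background correction and loess, the values lay higher at each time: 0.43 at 1 day (adjusted P = 0.0041), −0.20 at 3 days (adjusted P = 0.077), −0.41 at 7 days (adjusted P = 0.0018) and 0.37 at 14 days (adjusted P = 0.0072). The fall at 7 days was thus called under both, and that at 3 days and the rises at 1 and 14 days under 1 of them.

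*Dbi* had 2 probes that moved together. The brighter one read −0.10, −0.13 and −0.09 at 1 day, −0.34, −0.42 and −0.45 at 3 days, −0.30, −0.39 and −0.59 at 7 days, and 0.02, 0.27 and 0.05 at 14 days. The dimmer one was higher by 0.12 to 0.19 on every array, with readings of 0.08, 0.00 and 0.04 at 1 day, −0.20, −0.28 and −0.30 at 3 days, −0.17, −0.27 and −0.45 at 7 days, and 0.21, 0.40 and 0.17 at 14 days. Across the 12 arrays their ratios correlated at r = 0.996. The brighter probe fell by 0.40 at 3 days (SE 0.06, limma adjusted P = 0.0017) and by 0.43 at 7 days (SE 0.06, adjusted P = 0.00086), and the dimmer by 0.26 (adjusted P = 0.011) and 0.30 (adjusted P = 0.0041). At 14 days the dimmer rose by 0.26 (adjusted P = 0.023), while the brighter read 0.11 (adjusted P = 0.29). The 14-day call was lost without any 1 of the 3 arrays (0.19 to 0.30, adjusted P from 0.068 to 0.15), and the 3-day call of the dimmer probe without replicate 2 (−0.25, adjusted P = 0.061) or replicate 3 (−0.24, adjusted P = 0.060) and after normexp and loess (−0.12, adjusted P = 0.15). With that correction the brighter probe still fell, by 0.23 at 3 days (adjusted P = 0.019) and by 0.28 at 7 days (adjusted P = 0.0053), and the dimmer one by 0.16 at 7 days (adjusted P = 0.040).

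The acyl-CoA synthetases did not move alike. *Acsl1*, the main long-chain isoform of liver and other oxidative tissues, read 0.22, 0.20 and 0.08 at 1 day by its brighter probe, and all 6 readings of its 2 probes were above 0 there. The brighter probe rose by the test at 1 day (0.17, SE 0.04, limma adjusted P = 0.042), and the dimmer one had a larger mean with a wider error (0.22, SE 0.07, adjusted P = 0.094). Later readings of the brighter probe were 0.13, 0.08 and −0.02 at 3 days, 0.06, −0.04 and −0.06 at 7 days, and −0.07, 0.05 and −0.05 at 14 days, and no mean passed. The 1-day call was lost without any 1 of the 3 arrays (0.14 to 0.21, adjusted P from 0.060 to 0.20), when arrays were centred on their median (0.12, adjusted P = 0.21) and when channels were scaled by their totals (0.13, adjusted P = 0.087).

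*Acsl3*, an isoform of the endoplasmic reticulum and of lipid droplets, read 0.12, −0.33 and −0.07 at 1 day, −0.48, −0.64 and −0.52 at 3 days, −0.40, −0.78 and −0.83 at 7 days, and 0.09, 0.09 and 0.44 at 14 days. The 3-day and 7-day arrays all lay below those of 1 and 14 days. The mean fell by 0.55 at 3 days (SE 0.10, limma adjusted P = 0.0059) and by 0.67 at 7 days (SE 0.10, adjusted P = 0.0015), which is 31.7% and 37.1% below the control signal. The 1-day mean of −0.09 (adjusted P = 0.62) and the 14-day mean of 0.21 (adjusted P = 0.27) did not pass. Its processed signals on the MgH2 arrays were only 50.7 to 108 units, and the fall was smaller with another background correction and normalization together: after normexp and loess it was −0.25 at 3 days (adjusted P = 0.027) and −0.39 at 7 days (adjusted P = 0.0020).

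*Acsl5*, an isoform of mitochondria and endoplasmic reticulum linked to triglyceride synthesis, read −0.11, −0.28 and −0.17 at 1 day, −0.31, −0.38 and −0.48 at 3 days, −0.16, −0.31 and −0.47 at 7 days, and 0.07, 0.11 and −0.01 at 14 days. All 9 MgH2 arrays were below 0. The mean fell by 0.39 at 3 days (SE 0.06, limma adjusted P = 0.0020) and by 0.31 at 7 days (SE 0.06, adjusted P = 0.0038), that is 23.6% and 19.5% below control. At 1 day the mean was −0.19 with a limma adjusted P of 0.078. It passed with channels scaled by their totals (−0.22, limma adjusted P = 0.043). It also passed with the replicate block (limma adjusted P = 0.033), which is no added support, as said for *Cd36*. *Acsl4*, an isoform with a preference for arachidonic acid, stayed between −0.14 and 0.26 on the 12 arrays, with 95% intervals of −0.18 to 0.10 at 1 day and −0.13 to 0.15 at 7 days.

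The calls at 3 and 7 days rested on a spread estimated over all 12 arrays. With only the 3 arrays of a time in the fit, *Acsl3* alone passed at 3 days, and *Acsl3*, *Fabp1* and the brighter *Dbi* probe at 7 days. For the other falls of 3 days in that fit, limma's adjusted P was 0.057 for *Fabp1*, 0.061 for *Acsl5* and 0.055 and 0.076 for the *Dbi* probes. At its own threshold, an unadjusted P under 0.05, the methods' t-test passed 4 of these 13 at 7 days, beside 18.8% of all probes tested.

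The signals of the 2 channels are given here apart, with each channel set against the 75th percentile of its array on the log2 scale. The control signal of *Fabp1* was 6.43, 6.42 and 6.36 on the 1-day arrays, 6.80, 6.77 and 6.71 at 3 days, and 6.84, 7.00 and 7.00 at 7 days. The treated signal went from 6.50 to 6.60 at 1 day, 6.20 to 6.38 at 3 days and 6.20 to 6.48 at 7 days. The control signals of the 3 times did not overlap and stood higher at the later times, whereas the treated signals of 3 and 7 days lay below those of 1 day. With median signals less local background in place of the processed ones, the control signal was 5.90 to 5.96, 6.14 to 6.28 and 6.25 to 6.48 at the 3 times. These levels were compared across arrays without a test, and slide and time differ together, so they cannot settle which side of the ratio moved.

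For *Dbi*, the brighter probe had control signals of 5.88 to 6.02 at 1 day, 6.05 to 6.14 at 3 days and 6.001 to 6.25 at 7 days, and treated signals of 5.78 to 5.93, 5.69 to 5.72 and 5.67 to 5.73. The control signals of 7 days overlapped those of both other times, and the treated signals of 3 and 7 days lay below all of those of 1 day. With median signals less local background, the treated signals of 7 days (5.90 to 5.996) overlapped those of 1 day (5.95 to 6.10). On that measure the control signals of 1 day (5.58 to 5.78) lay below those of 3 days (5.79 to 5.95) and 7 days (5.80 to 6.09). Which channel overlapped between 1 and 7 days thus depended on the measure. For *Acsl5*, the control signals overlapped across the MgH2 times (1.37 to 1.68, 1.37 to 1.61 and 1.46 to 1.63), and the treated signals were 1.24 to 1.51, 1.04 to 1.14 and 1.17 to 1.30. For *Acsl3*, control signals of −4.77 to −4.15 and treated signals of −5.28 to −4.50 on the MgH2 arrays compare with −3.38 to −3.16 and −3.09 to −2.94 on the H2-water arrays. Slide, scanner software version, control treatment and experiment all differ between these sets and cannot be told apart.

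**Figure D3:**
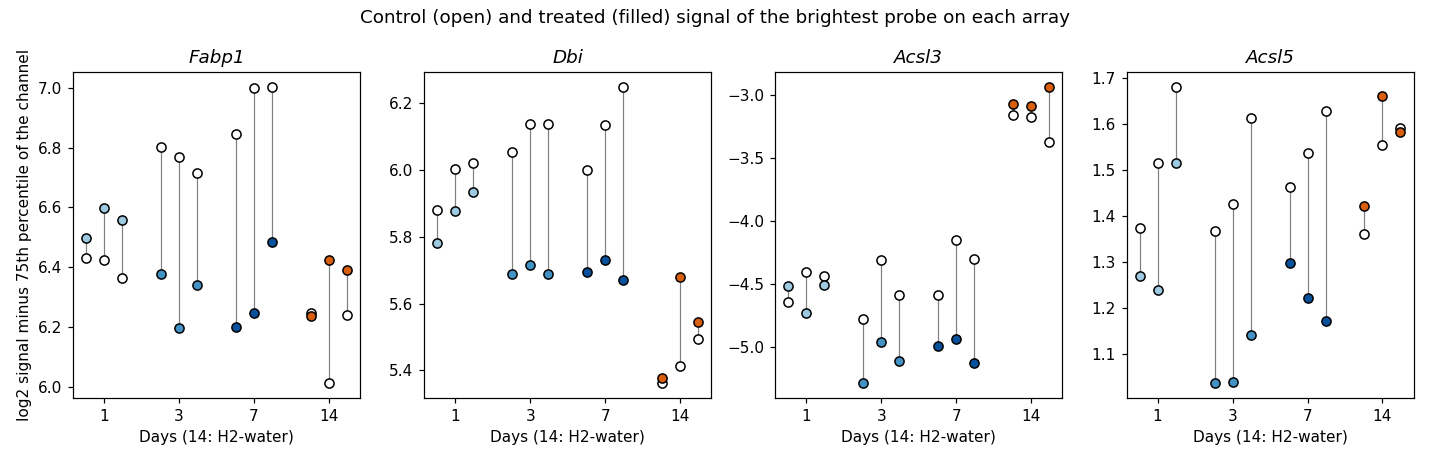
Log2 processed signal minus the 75th percentile of the channel (vertical axis) for the brightest probe of *Fabp1*, *Dbi*, *Acsl3* and *Acsl5*, by days of treatment (14 days is H2-water); each vertical line joins the control pool (open) and the treated pool (filled) of 1 array. In *Fabp1* the control points stand at 6.36 to 6.43 at 1 day and at 6.84 to 7.00 at 7 days, while the treated points go from 6.50 to 6.60 to 6.20 to 6.48.

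Contrasts of the log2 ratios tested how the time points differed. From 1 to 7 days of MgH2, 6.95% of all probes tested differed (3.69% lower), and so did 4 of the 13 probes, all lower at 7 days: *Fabp1* by −0.78 (95% interval −1.01 to −0.55, limma adjusted P = 0.0081), *Acsl3* by −0.57 (adjusted P = 0.046), and the *Dbi* probes by −0.32 (adjusted P = 0.0495) and −0.34 (adjusted P = 0.036). The difference of *Acsl5* was −0.13 (95% interval −0.31 to 0.06), which did not pass. *Fabp1* passed without any 1 of the 6 arrays (−0.83 to −0.73, adjusted P from 0.019 to 0.033). *Acsl3* did not pass without replicate 1 or 3 of 1 day or replicate 2 or 3 of 7 days (adjusted P from 0.10 to 0.14), the brighter *Dbi* probe without any 1 of the 6 arrays (0.056 to 0.14), and the dimmer without replicate 1, 2 or 3 of 1 day or replicate 2 or 3 of 7 days (0.069 to 0.11).

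No slide held both 1-day and 7-day arrays, so slide and time could not be told apart directly in this contrast. Only the 3-day arrays linked the slides. All 1-day arrays shared a slide with replicate 1 of 3 days, and the other 3-day arrays shared one with replicates 1 and 2 of 7 days. Replicate 3 of 7 days was alone on its slide. With slide as a fixed term, the difference of 7 days from 1 day was −0.76 for *Fabp1* (limma adjusted P = 0.42), −0.40 for *Acsl3* (adjusted P = 0.67) and −0.15 and −0.17 for *Dbi* (adjusted P = 0.74 and 0.67), and no probe of the array passed. Within the slide that held 1-day and 3-day arrays, 3 days minus 1 day was −0.54 for *Fabp1*, −0.39 for *Acsl3* and −0.23 and −0.24 for *Dbi*, none called. Within the slide that held 3-day and 7-day arrays, 7 days minus 3 days was −0.22 for *Fabp1*, −0.01 for *Acsl3* and 0.09 and 0.07 for *Dbi*.

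Across all arrays, 3 days minus 1 day called 0.0208% of all probes tested (4 probes by limma's adjusted P, 2962 at an unadjusted P under 0.05). It called none of the 13, the nearest being *Fabp1* (−0.59, limma adjusted P = 0.082). 7 days minus 3 days called 0% (0 probes by limma's adjusted P, 904 at an unadjusted P under 0.05), with *Fabp1* at −0.19 (95% interval −0.42 to 0.04) and *Acsl3* at −0.12 (−0.45 to 0.21).

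**Figure D4:**
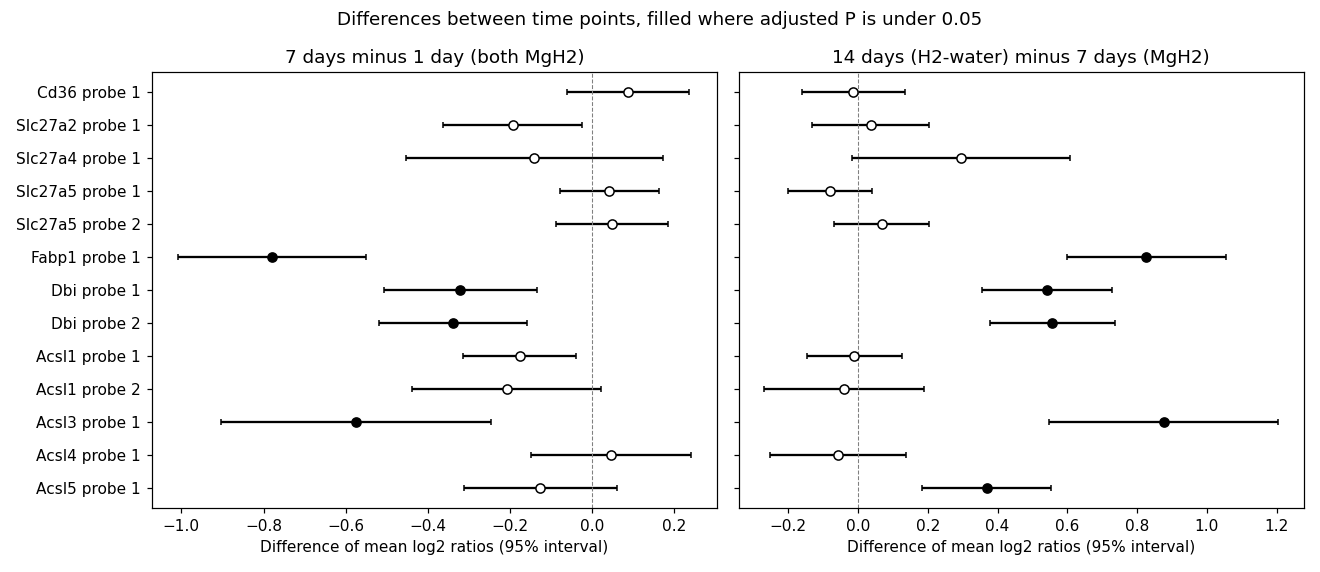
Difference of mean log2 ratios (horizontal axis) with its 95% interval for each of the 13 probes, 7 days minus 1 day of MgH2 on the left and 14 days of H2-water minus 7 days of MgH2 on the right; points are filled where limma's adjusted P was under 0.05. *Fabp1* has the farthest difference on the left (−0.78), and *Acsl3* (0.88) and *Fabp1* (0.83) on the right.

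The ratios of H2-water at 14 days were also set against those of MgH2 at 7 days. The difference of 14 days from 7 days was 0.88 for *Acsl3* (95% interval 0.55 to 1.20, limma adjusted P = 0.016), 0.83 for *Fabp1* (0.60 to 1.05, adjusted P = 0.0077), 0.54 and 0.56 for the *Dbi* probes (adjusted P = 0.013 and 0.011) and 0.37 for *Acsl5* (0.18 to 0.55, adjusted P = 0.033). These 5 of 13 probes compare with 6.61% of all probes tested, 3.46% higher. For *Cd36* it was −0.01 (−0.16 to 0.13) and for *Slc27a2* 0.04 (−0.13 to 0.20). Agent, route, control, duration, slide and software version all differ between these groups and cannot be told apart. *Fabp1* and both *Dbi* probes passed without any 1 of the 6 arrays, *Acsl3* did not without replicate 2 or 3 of 14 days or replicate 3 of 7 days (adjusted P = 0.051, 0.051 and 0.065), and *Acsl5* passed only without replicate 1 of 7 days (adjusted P otherwise from 0.068 to 0.11).

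The ratios of *Dbi*, *Acsl5*, *Acsl3* and *Fabp1* ran together over the 12 arrays. By their brightest probes, r was 0.93 for *Acsl5* and *Dbi*, 0.89 for *Acsl3* and *Dbi*, 0.87 for *Dbi* and *Fabp1*, 0.86 for *Acsl3* and *Acsl5*, 0.83 for *Acsl3* and *Fabp1*, and 0.69 for *Acsl5* and *Fabp1*. *Acsl1* ran with *Slc27a2* instead (r = 0.81), and with *Dbi* and *Acsl5* its r was 0.14 and −0.01. The 12 points share 4 groups and, within an array, 1 normalization, so these values are descriptions.

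Of 11554 other genes above background throughout, the 3 with the ratio most like a gene's over the 12 arrays, by Pearson's r, were found in the same way. For *Fabp1* they were *Elmod2* (0.98), *Sec24c* (0.97) and *Ampd2* (0.96). For *Dbi* they were *Mpeg1* (0.97), a macrophage gene, *Elovl5* (0.97), a fatty acid elongase, and *Niban1* (0.96). For *Acsl5* they were *Sc5d* (0.97), an enzyme of cholesterol synthesis, *Pgd* (0.96), of the pentose phosphate pathway, and *Elovl5* (0.96). *Elovl5* was thus near both *Dbi* and *Acsl5*. For *Acsl3* they were *Cryzl2* (0.97), *Atpsckmt* (0.94) and *2010003K11Rik* (0.94). For *Acsl1* the nearest was *Apob* (0.95), the main protein of very low-density lipoprotein, then *Macf1* and *Frrs1* (both 0.90). For *Slc27a2* they were *Bmpr2* (0.92), *Zfp661* (0.91) and *Def6* (0.90).

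Other genes of fatty acid transport, binding and activation were taken as a list of 31, of which 22 could be tested at 1, 3 and 14 days and 21 at 7 days. By the brightest probe of each, at 1 day 0 rose and 2 fell, at 3 days 2 rose and 2 fell, at 7 days 2 rose and 4 fell, and at 14 days 1 rose and 0 fell. Over all probes tested, 9.39%, 23.4%, 29.5% and 8.84% were called at 1, 3, 7 and 14 days. The counts are not read as a response of the list. Among the transporters, *Slc27a1* rose at 3 days (0.31, limma adjusted P = 0.020) and 7 days (0.40, adjusted P = 0.0050), and so did *Scarb1*, a lipoprotein receptor of the CD36 family (0.31 and 0.32, adjusted P = 0.0034 and 0.0018). *Got2*, a mitochondrial transaminase also described as a fatty acid binding protein of the plasma membrane, fell at 1, 3 and 7 days (−0.23, −0.16 and −0.12, adjusted P = 0.0041, 0.0087 and 0.027). Of the binding proteins, *Fabp5* fell by 0.49 at 3 days and by 0.84 at 7 days (adjusted P = 0.037 and 0.0025) and *Fabp2* fell by 0.36 at 7 days (adjusted P = 0.016). *Acbd4* fell by 0.17 at 7 days (adjusted P = 0.0097) and *Acbd6* fell by 0.13 at 1 day (adjusted P = 0.036). The only synthetase of the list called by its brightest probe was *Acsf3*, a mitochondrial malonyl-CoA synthetase, which rose at 14 days (0.33, adjusted P = 0.0094). *Acss2*, an acetyl-CoA synthetase, fell by another probe at 3 and 7 days (−0.52 and −0.35, adjusted P = 0.011 and 0.041), where its brightest probe read −0.37 and −0.34 (adjusted P = 0.058 and 0.070). Other probes also fell for *Acbd4* at 3 days (−0.12, adjusted P = 0.026) and for *Scp2*, a lipid transfer protein, at 3 and 7 days (−0.19 and −0.31, adjusted P = 0.031 and 0.0027). *Slc27a6*, *Cav1*, *Acbd7*, *Acsl6*, *Acsbg1* and *Acsbg2* were above background on no array.

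Markers of cell types were counted by their brightest probe. Only the Kupffer cell list had lower calls at both 3 and 7 days with summed ratios below 0 on all those arrays. Over all probes tested, 23.4% were called at 3 days (11.1% lower) and 29.5% at 7 days (14.3% lower), beside 9.39% at 1 day and 8.84% at 14 days. Of 6 Kupffer cell markers, 0 rose and 3 fell at 3 days and 4 fell at 7 days, and their summed signal had a log2 ratio of −0.39 to −0.32 at 3 days and −0.43 to −0.34 at 7 days, beside −0.30 to −0.02 at 1 day and −0.18 to 0.19 at 14 days. All 6 were above background on all arrays. Of the stellate cell markers (4 tested at 3 days, 5 at 7 days), *Lrat* and *Col1a1* fell at 3 and 7 days (summed −0.28 to −0.08 and −0.17 to 0.12). Of the 4 leukocyte markers tested, 1 fell at 1 day, 1 rose and 1 fell at 3 days, 2 fell at 7 days and 1 fell at 14 days (summed −0.02 to 0.05 at 3 days and −0.13 to 0.02 at 7 days). Of 8 hepatocyte markers, 2 rose and 1 fell at 3 days and 4 rose and 1 fell at 7 days (summed 0.00 to 0.12 and 0.07 to 0.24), with *Alb* up by 0.41 at 7 days (limma adjusted P = 0.00013).

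Of 5 sinusoidal endothelial markers, 2 rose and 1 fell at 3 days and 1 rose and 1 fell at 7 days (summed −0.10 to 0.03 and −0.24 to −0.05), and *Kdr* fell by 0.19 at 14 days. Of 3 erythroid markers tested, *Alas2* alone fell, at 3, 7 and 14 days. Of 3 pancreatic acinar markers tested, *Ctrb1* fell by 0.11 at 3 days and none was called otherwise by its brightest probe, while another *Amy2a5* probe rose at 7 days (0.27, adjusted P = 0.042). Of the cholangiocyte markers tested (3 at 1 day, 2 later), none was called. The adipocyte markers *Adipoq*, *Plin1* and *Lep* were above background on no array. *Cfd* and *Retn* were measured, and *Cfd* fell by 2.42 at 7 days (adjusted P = 0.038) and read −2.19 at 3 days (adjusted P = 0.064). The sums took in every gene of a list, above background or not, and in the adipocyte list only *Cfd* and *Retn* were above it. The summed ratio of the adipocyte list ran from −0.77 to 2.00 at 1 day, −2.45 to −0.44 at 3 days, −2.69 to −0.30 at 7 days and 0.17 to 1.42 at 14 days. The smallest falls of 3 and 7 days were those of replicate 1. For replicates 1, 2 and 3, the summed control signal was −3.67, −1.38 and −1.57 at 1 day and −3.86, −1.36 and −1.64 at 7 days. The treated signal was −1.67, −2.15 and −2.22 at 1 day and −4.16, −4.04 and −4.05 at 7 days. The part of these cell types in the ratios of the fatty acid genes was not tested.

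The replicate numbers also carried a shared deviation. Among the 1-, 3- and 7-day arrays, the control channels of the same number deviated from their group means together (r from 0.322 to 0.671 over 9 pairs), whereas the treated channels did not (−0.296 to 0.176). For replicates 1, 2 and 3, the summed control signal of the erythroid markers was 4.22, 3.55 and 3.89 at 1 day. It was 4.23, 3.55 and 3.94 at 3 days and 4.29, 3.55 and 3.92 at 7 days. The treated sums were 3.46, 3.39 and 3.64, then 3.82, 3.86 and 3.75, then 3.38, 3.94 and 3.40. Hepatocyte control sums repeated less closely (replicate 3: 8.82, 8.78 and 8.91). The labels give each time its own controls. Whether control RNA was used on more than 1 array is not stated in the sources used here and was not tested. The ratios of the 3 MgH2 times may thus not be independent of each other, nor their falls separate results.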

How the data were processed

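Liver RNA of 12 two-colour arrays was used. The authors scanned the arrays with Feature Extraction, and the deposited intensity values are background-corrected and dye-normalized within each array (linear and lowess); raw median intensities and local background were deposited as well. The log10 ratio that Feature Extraction wrote and the deposited log2 table hold the same ratios and were used as a check. The version in the file headers was 10.7.3 for the 14-day arrays and 10.10.1 for the others. From the processed intensities the log2 ratio of Cy5 over Cy3 was taken, spots marked as outliers were left out (160 to 244 an array), and spots of a probe were averaged. Probes were named by RefSeq record (26761 of 39429), and a gene is represented by its brightest probe.

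A single limma fit (version 3.58.1, R 4.3.3) held the 12 arrays and 4 group means, which were tested two-sided against 0 or against each other, with Benjamini-Hochberg adjustment over the probes that were above background in each channel of every array compared. On simulated data for the 7-day comparison (18411 probes), 51% of 1.25-fold and 82% of 1.5-fold changes were recovered. The simulation changed few probes and drew the arrays independently, whereas 29.5% of the real probes tested were called at 7 days. These rates may therefore not hold for the real arrays. Replicate numbers pair the MgH2 arrays, since ratios of the same number correlated at 0.368 to 0.655 over 9 pairs; those of 14 days correlated with the others at −0.0411 to 0.287. The pairing comes from the data, not from the labels. Alternatives were another scaling, centring, normexp (offset 50) with loess, other filters, the slide and replicate blocks, fewer arrays and the methods' t-test. With slide as a random block, the consensus correlation within a slide was −0.080. A correlation below 0 narrows the error of a mean whose arrays share a slide, as all 1-day arrays did. The added calls of that setting are therefore no added support. The number of arrays limits the precision, and P values measure the spread between pools of 3 mice. Members and lists were chosen with earlier results of these data known. All 10 members were named, related genes where called in a group mean, and the 3 most similar genes of each called member, some of which are not reported here.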

Additional observations from a re-analysis of the deposited data

Results flagged for a closer look

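Some differences between groups were themselves past the threshold and may be looked at again. Between 7 days and 1 day of MgH2, the log2 ratio of *Fabp1* differed by −0.78, that of *Acsl3* by −0.57 and those of the *Dbi* probes by −0.32 and −0.34 (limma). Between 14 days of H2-water and 7 days of MgH2, *Acsl3* differed by 0.88, *Fabp1* by 0.83, the *Dbi* probes by 0.54 and 0.56, and *Acsl5* by 0.37 (limma), where agent, route, control, duration, slide and software version cannot be told apart.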

How the results depend on the processing

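At 1 day, 2 of the 13 probes were called; the count was 0 with arrays centred on their median, 0 by the methods' t-test after Benjamini-Hochberg adjustment, 0 without a filter on dim probes, 0 with only the arrays compared in the fit, 4 after normexp and loess, 4 with the replicate block and 6 with slide as a random block. At 3 days (7 called) it was 0 by the methods' t-test after adjustment, 1 with only the arrays compared and 4 after normexp and loess. At 7 days (7 called) it was 0 by the methods' t-test after adjustment, 4 at its own threshold and 3 with only the arrays compared. At 14 days (1 called) it was 0 by the methods' t-test after adjustment, 0 with only the arrays compared, 4 after normexp and loess and 2 with the replicate block. For 7 days minus 1 day (4 called) it was 2 with channels scaled by their totals, 1 without a filter, 1 with only the arrays compared and 0 with slide as a fixed term. For 14 days minus 7 days (5 called) it was 3 with only the arrays compared. The replicate block moved no other count of the 13 probes by over 1.5 times. Leaving out 1 array gave 0 to 0 calls at 1 day, 4 to 6 at 3 days, 6 to 7 at 7 days, 0 to 0 at 14 days, 1 to 3 for 7 days minus 1 day and 3 to 5 for 14 days minus 7 days. Averaged over its probes, *Slc27a5* turned to −0.0019 at 1 day and −0.026 at 3 days. Apart from these, no called value changed sign. Of single values under other settings, 1140 kept their side of the threshold, 21 gained a call and 70 lost one, and with 1 array left out 427 kept it and 41 lost a call.

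Centring took each array's median over all probes, dim ones included. Without the filter on dim probes, the median log2 ratio at 7 days was 0.09, against 0.0059 for the probes tested. Centring moved the median of the probes tested at 7 days to −0.11. The split of calls there went from 2973 higher and 2775 lower to 939 and 5267, with *Fabp1*, *Dbi*, *Acsl3* and *Acsl5* still called lower. The split was 314 and 443 at 1 day (1013 and 833 without centring), 1267 and 96 at 14 days (1006 and 799), 117 and 949 for 7 days minus 1 day (625 and 707) and 3882 and 103 for 14 days minus 7 days (646 and 589). With channels scaled by their totals it was 717 and 1580 at 1 day, 1759 and 2824 at 3 days (2389 and 2153), 2382 and 3353 at 7 days and 792 and 1175 at 14 days. Without a filter on dim probes it was 470 and 244 at 1 day, 6133 and 2427 at 7 days, 1004 and 1313 at 14 days and 1009 and 5626 for 14 days minus 7 days. Over the array, the counts of called probes ran from 101 to 3046 at 1 day (1846), from 1 to 5940 at 3 days (4542), from 0 to 8560 at 7 days (5748), from 0 to 2809 at 14 days (1805), from 0 to 64 for 3 days minus 1 day (4), from 0 to 2571 for 7 days minus 1 day (1332) and from 420 to 6635 for 14 days minus 7 days (1235). With 1 array left out they were 411 to 769, 2063 to 2950, 3085 to 4002 and 448 to 573 in the group means of 1, 3, 7 and 14 days, 0 to 8 for 3 days minus 1 day, 198 to 882 for 7 days minus 1 day and 103 to 780 for 14 days minus 7 days. Beyond the centre used, the causes of these moves were not tested. The low signals of *Acsl3* and *Slc27a4* limit their ratios.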
